A study of Mus musculus with 2 samples.

Results

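Syndecans and glypicans are the cell-surface heparan sulfate proteoglycans, and their 10 mouse genes (Sdc1 to Sdc4 and Gpc1 to Gpc6) were taken by symbol from an expression table of 23235 genes. All 10 were listed, and 9 had a mean level over both libraries of 1 FPKM or more (a fragment count scaled for transcript length and library size). The study looked for target genes of Pax7, a transcription factor that marks and maintains muscle stem cells. It holds 1 polyA RNA-seq library from Pax7 KO neonates and 1 from WT neonates, both labelled as activated skeletal muscle satellite cells, the stem cells that lie along the muscle fibre. The mouse lines named are Pax7CreER/+, in which Pax7 drives a tamoxifen-inducible Cre, and Pax7flox/flox. Deletion in the Pax7 KO group is therefore limited to cells that expressed that Cre and to cells descended from them. The labels' protocols give tamoxifen at 75 µg per g of body weight on 5 consecutive days from postnatal day 5. The sources used here do not say whether WT mice carried the Cre or received tamoxifen, or how many animals were pooled. Cells of both groups were released from hind limb and back muscle with pronase, enriched by sedimentation and grown on Matrigel in a medium with 20% fetal bovine serum, 10% horse serum and 2.5 ng/ml bFGF. That growth factor is itself a heparan sulfate ligand.

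With 1 library per genotype there is no spread between replicates, so each difference is one between these 2 libraries, and no significance test was made. Pax7 was at 0.769 FPKM in Pax7 KO and 3.21 FPKM in WT, a direction that goes with the labels. The low values in the table corresponded to about 21100000 fragments in Pax7 KO and 25200000 in WT. From this, approximate fragments and a 95% exact counting interval were derived for each gene. The intervals cover counting error only. They use the longest transcript of each gene, so where a shorter one is expressed, fragments are overstated and the interval is too narrow. Most genes had higher deposited values in Pax7 KO: the median gene above 1 FPKM had a log2 ratio of 0.42 with a pseudocount of 1, or of 0.50 without one. Ratios below are therefore given as deposited and relative to that median gene.

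Syndecans span the membrane. Their ectodomains carry heparan sulfate chains, and short cytoplasmic tails bind PDZ proteins and the cytoskeleton. Glypicans are held to the outer leaflet by a glycosylphosphatidylinositol anchor and carry their chains close to the membrane. The chains hold growth factors such as FGF2 and HGF and present them to their receptors, and in muscle Sdc3 and Sdc4 are used as surface markers of satellite cells.

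Both families were expressed in both libraries, and their members spanned a wide range of levels. Sdc4 was the most abundant member, at 81.0 FPKM in Pax7 KO and 72.9 FPKM in WT, which placed it above 96.7% of the rows of the Pax7 KO column and 97.4% of those of the WT column. Gpc1 came next in both libraries. Sdc1 followed in Pax7 KO, with 40.4 FPKM against 34.8 FPKM for Sdc3, whereas in WT Sdc1 stood below Sdc3, with 23.7 FPKM against 33.1 FPKM. This was the only exchange of places among the members, and the lower ones kept the order Gpc4, Sdc2, Gpc6, Gpc3, Gpc2 and Gpc5 in both libraries. FPKM is scaled to length, so levels can be set beside each other, but with 1 library per genotype no neighbouring pair could be held against a spread.

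**Figure D1:**
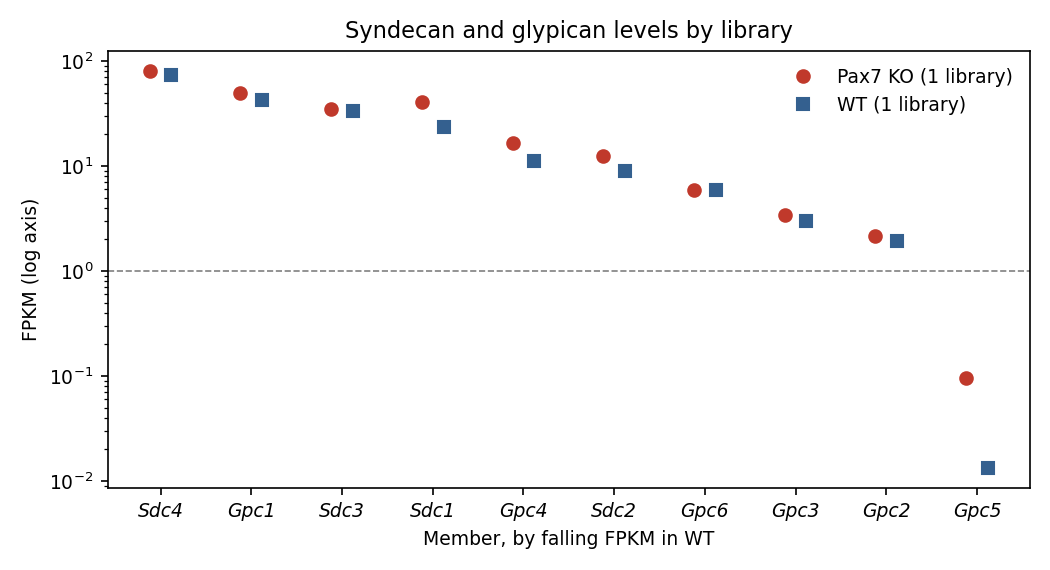
FPKM of each member on a log axis, in the Pax7 KO library (circles) and the WT library (squares), ordered by the WT value. Each point is 1 library, and the dashed line is the limit of 1 FPKM. Sdc4 is at the top, with 81.0 FPKM in Pax7 KO and 72.9 FPKM in WT, and Gpc5 lies far below the limit.

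No member above that limit differed by 2-fold. Of the 9 members above the limit, 0 were at least 2-fold higher in Pax7 KO, against 5.06% of all 11751 genes, and 0 were at least 2-fold lower, against 0.689%. Relative to the median gene the members' counts were also 0 and 0, against 1.35% and 1.45% of all genes. As deposited, 9 of the 9 had a log2 ratio above 0, as had 88.6% of all genes. At a 1.5-fold limit 1 of them, Sdc1, was higher, against 30.0% of all genes, and 0 were lower, against 1.43%. Their median log2 ratio was 0.15, below the 0.42 of the median gene, and 6 of the 9 lay below that gene. The authors' deposited table of called genes held none of the 10 members in either direction. The share of all genes that it holds was not computed, so this count has no background beside it.

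The counting intervals sorted these members into 3 sets. For 5 of them (Sdc3, Sdc4, Gpc1, Gpc2 and Gpc6) the whole interval of the log2 ratio without a pseudocount lay below the median gene, which was true of 31.4% of all genes. For 1 of them, Sdc1, it lay above, as for 30.8% of all genes. For Sdc2, Gpc3 and Gpc4 it included the median gene. Set against 0, that is against equal deposited values, 6 of the 9 had an interval wholly above and 0 wholly below, beside 78.6% and 5.67% of all genes. Such positions were thus common in this pair of libraries.

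**Figure D2:**
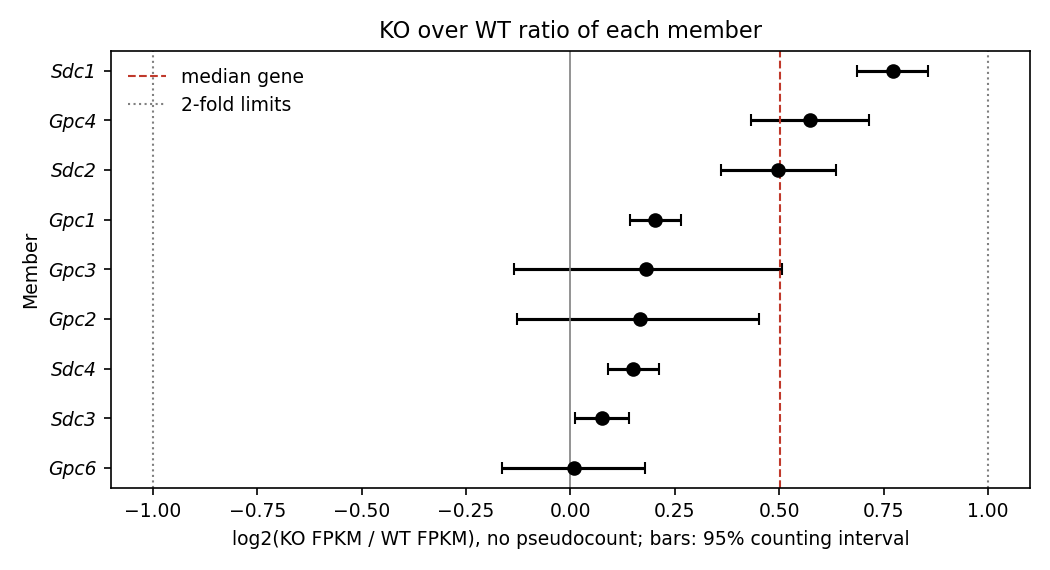
Log2 ratio of Pax7 KO over WT FPKM without a pseudocount for the 9 members above the limit, with 95% exact counting intervals as bars. The dashed line marks the median gene at 0.50 and the dotted lines mark 2-fold. Sdc1 alone lies wholly to the right of the median gene, and Gpc6 is the leftmost point.

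Sdc1 (chromosome 12, 8778202 to 8800493, mm9), the main syndecan of epithelia and plasma cells, had the largest ratio of the 9. It stood at 40.4 FPKM in Pax7 KO, about 2692 fragments, and at 23.7 FPKM in WT, about 1884 fragments. The deposited value was thus 1.71-fold higher in Pax7 KO. Its log2 ratio was 0.75 as deposited and 0.33 relative to the median gene, and without a pseudocount it was 0.77, with a counting interval of 0.69 to 0.86. Of all genes above the limit, 83.8% had a lower ratio, so Sdc1 was high within the family but not extreme in the table.

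Sdc2 (chromosome 15, 32850478 to 32964476), a syndecan of fibroblasts and endothelial cells, followed the median gene. It was at 12.5 FPKM in Pax7 KO and 8.89 FPKM in WT, a log2 ratio of 0.45. Relative to the median gene this was 0.03 with the pseudocount, and the interval without it, from -0.14 to 0.13, spanned 0.

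Sdc3 and Sdc4, the syndecans used to mark satellite cells, differed little between the libraries. Sdc3 (chromosome 4, 130348452 to 130382233) was at 34.8 FPKM in Pax7 KO and 33.1 FPKM in WT, which gives a log2 ratio of 0.07, or -0.35 after the median gene is subtracted. Sdc4 (chromosome 2, 164249747 to 164268688), which also acts at focal adhesions, was at 81.0 FPKM in Pax7 KO and 72.9 FPKM in WT. Its log2 ratio was 0.15 as deposited and -0.27 relative to the median gene. The direction of both therefore depends on the scaling. Of 8 other satellite cell and myoblast genes above the limit, 5 were at least 2-fold lower in Pax7 KO, against 0.689% of all genes. The 5 include Pax7 itself, the deleted gene, and Myf5, a myogenic determination factor, with a log2 ratio of -2.61. Also among them is Cdh15, which encodes M-cadherin, with -1.38. The remaining 3 of the 8 were nearer to Sdc3 and Sdc4. The adhesion molecule Vcam1 had a log2 ratio of -0.38, the laminin receptor subunit Itga7 of -0.34 and the intermediate filament gene Des of -0.16. In a bulk culture, fewer cells of a type and less RNA per cell cannot be told apart.

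Gpc1 (chromosome 1, 94728263 to 94756773), a glypican of muscle and the nervous system, was the most abundant glypican. It was at 49.3 FPKM in Pax7 KO and 42.9 FPKM in WT, which gives a log2 ratio of 0.20, or -0.22 after the median gene is subtracted. Its counting interval without a pseudocount ran from 0.14 to 0.26, which is above 0 and below the median gene. The microRNA row Mir149 shares its locus and was at the lowest listed value, 0.001, in both libraries.

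Gpc4 (chromosome X, 49406195 to 49518100), a glypican that takes part in Wnt and BMP signalling, had the largest ratio of the glypicans above the limit. It was at 16.5 FPKM in Pax7 KO and 11.1 FPKM in WT, a log2 ratio of 0.53. Relative to the median gene this was 0.11, and the relative interval without a pseudocount, from -0.07 to 0.21, spanned 0. Gpc3 (chromosome X, 49625604 to 49972224), a restrainer of embryonic growth and of Hedgehog signalling, lies 108 kb from Gpc4. It was much lower in both libraries, at 3.41 FPKM in Pax7 KO and 3.01 FPKM in WT, with a log2 ratio of 0.14. A long non-coding row, A630012P03Rik, shares the Gpc3 locus at 0.0473 FPKM in Pax7 KO and 0.0987 FPKM in WT.

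Gpc6 and Gpc5 are likewise neighbours, 400 kb apart on chromosome 14, and their levels were far apart. Gpc6 (117324537 to 118378751), known for its part in growth plate cartilage, was at 5.92 FPKM in Pax7 KO and 5.89 FPKM in WT. Its log2 ratio of 0.01, or -0.41 relative to the median gene, was the smallest of the 9, and 11.8% of all genes had a lower one. Gpc5 (115491437 to 116924414), a glypican of brain and kidney, was at 0.0958 FPKM in Pax7 KO and 0.0133 FPKM in WT. These values correspond to about 6 fragments in Pax7 KO and 1 fragment in WT. With no pseudocount their log2 ratio was 2.85 and its counting interval ran from -0.20 to 8.36, so no difference was detectable at this depth. The row 4930505G20Rik at the Gpc5 locus was at 0.001 in Pax7 KO and 0.0770 FPKM in WT. Gpc2 (chromosome 5, 138714888 to 138721165), known mainly from the developing nervous system, was at 2.15 FPKM in Pax7 KO and 1.92 FPKM in WT. Its log2 ratio was 0.11, and the counting interval without a pseudocount, -0.13 to 0.45, spanned 0.

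The make-up of each family is independent of the scaling of the libraries. The summed syndecan level was 169 FPKM in Pax7 KO and 139 FPKM in WT, and the summed glypican level was 77.4 FPKM in Pax7 KO and 64.8 FPKM in WT. Sdc1 made up 23.9% of the syndecan sum in Pax7 KO and 17.1% in WT. Sdc4 made up 48.0% in Pax7 KO and 52.6% in WT, and Sdc3 20.6% in Pax7 KO and 23.9% in WT, while Sdc2 held 7.43% in Pax7 KO and 6.41% in WT. Among glypicans Gpc4 made up 21.3% in Pax7 KO and 17.1% in WT. Gpc1 made up 63.7% in Pax7 KO and 66.2% in WT, so the most abundant member of each family stayed the most abundant.

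**Figure D3:**
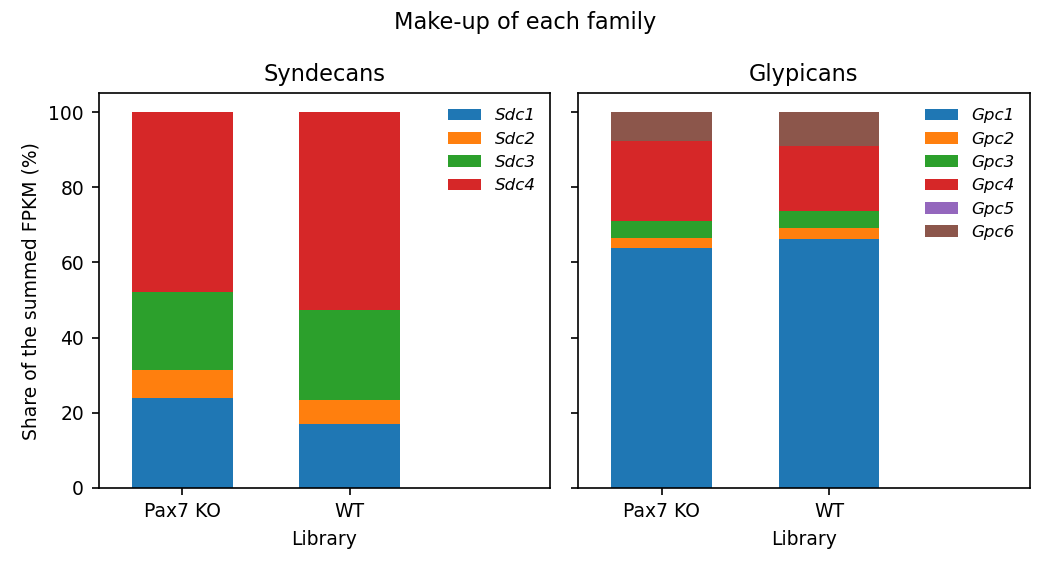
Share of each member in the summed FPKM of its family, in percent, with the Pax7 KO library left of the WT library in both panels. In the syndecan panel the Sdc1 segment is 23.9% in Pax7 KO and 17.1% in WT. In the glypican panel Gpc1 is the largest segment of both bars, and Gpc5 is too small to be seen.

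Ratios between members show the same exchange without any scaling. The Sdc1 level was 0.499 times that of Sdc4 in Pax7 KO and 0.325 times in WT, which is a 1.54-fold difference with an exact conditional counting interval of 1.43 to 1.65. Against Sdc3, Sdc1 stood at 1.16 in Pax7 KO and 0.716 in WT, a difference of 1.62-fold (1.5 to 1.74). Sdc3 and Sdc4 kept nearly the same ratio, at 0.430 in Pax7 KO and 0.453 in WT, and the interval of the difference, 0.893 to 1.01, included 1. Gpc4 relative to Gpc1 was at 0.334 in Pax7 KO and 0.258 in WT, a 1.29-fold difference (1.16 to 1.44). The neighbours Gpc3 and Gpc4 differed, with a ratio of Gpc3 to Gpc4 of 0.207 in Pax7 KO and 0.272 in WT (0.762-fold, 0.599 to 0.976). These 5 were among 8 such ratios computed, and the intervals are not adjusted for their number.

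Promoter windows from RefSeq (GRCm38.p6, 250 bases before to 50 after the annotated start) were matched by symbol for 7 of the 10 members. They are shown for Sdc1 and Sdc3, whose order changed, for Sdc4, the most abundant member, and for Gpc4, the glypican above the limit with the largest ratio. Each runs 5′ to 3′ along the gene's strand, and capitals mark GGGCGG or its reverse complement, the core letters of a GC box. The windows are chr12:8771146-8771445 on the plus strand, chr4:130792287-130792586 on the plus strand, chr2:164443139-164443438 on the minus strand and chrX:52164874-52165173 on the minus strand.
Sdc1: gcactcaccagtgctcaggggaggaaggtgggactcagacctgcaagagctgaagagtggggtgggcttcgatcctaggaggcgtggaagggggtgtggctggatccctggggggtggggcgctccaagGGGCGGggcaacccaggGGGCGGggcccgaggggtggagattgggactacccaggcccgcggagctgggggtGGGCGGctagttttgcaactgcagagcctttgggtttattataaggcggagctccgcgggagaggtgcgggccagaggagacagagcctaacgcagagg
Sdc3: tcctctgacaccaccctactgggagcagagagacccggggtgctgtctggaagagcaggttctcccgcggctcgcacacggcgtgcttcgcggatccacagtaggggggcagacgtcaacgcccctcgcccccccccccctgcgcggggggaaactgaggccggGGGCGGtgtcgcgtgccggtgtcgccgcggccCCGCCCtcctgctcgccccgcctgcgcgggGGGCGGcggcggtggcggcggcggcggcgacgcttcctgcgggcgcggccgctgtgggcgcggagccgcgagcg
Sdc4: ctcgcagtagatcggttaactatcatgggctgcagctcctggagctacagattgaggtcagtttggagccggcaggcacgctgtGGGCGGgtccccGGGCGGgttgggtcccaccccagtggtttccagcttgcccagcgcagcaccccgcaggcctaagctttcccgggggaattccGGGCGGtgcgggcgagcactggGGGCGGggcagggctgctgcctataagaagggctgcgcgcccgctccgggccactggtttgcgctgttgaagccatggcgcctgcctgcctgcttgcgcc
Gpc4: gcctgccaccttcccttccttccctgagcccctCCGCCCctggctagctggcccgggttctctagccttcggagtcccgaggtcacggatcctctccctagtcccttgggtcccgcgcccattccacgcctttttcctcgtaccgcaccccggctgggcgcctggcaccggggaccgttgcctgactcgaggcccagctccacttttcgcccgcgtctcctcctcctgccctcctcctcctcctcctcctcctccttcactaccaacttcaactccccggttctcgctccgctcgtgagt
All 7 windows held at least 1 GGGCGG on either strand, from 1 in Gpc4 and Gpc5 to 4 in Sdc4 and Gpc3, against 35.7% of all 32851 promoter windows of the same length. Their GC content ran from 54.7% in Gpc5 to 77.7% in Sdc3, where the median window had 52.7%. The E-box letters CANNTG, a pattern that reads the same on both strands and is bound by basic helix-loop-helix factors such as Myod1, were in the windows of Sdc1 and Gpc2, 1 each, and in 72.3% of all windows. The letters ATTA on either strand, the core of homeodomain sites, were in Sdc1 and Gpc5, and in 58.0% of all windows. A match is a description of the letters in this window, and no binding was measured here.

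The genes that act with syndecans and glypicans moved mostly with the whole table. Over 10 lists of enzymes, proteases, partners, ligands and receptors, 102 of 128 listed genes were above the limit. Of these, 2 were at least 2-fold higher in Pax7 KO and 1 at least 2-fold lower, against 5.06% and 0.689% of all genes. Their median log2 ratio was 0.46, beside 0.42 for all genes. Relative to the median gene, 0 were higher and 1 lower, against 1.35% and 1.45% of all genes. These counts, and those of the lists below, are on the scale with a pseudocount of 1. As plain ratios of FPKM, 7 were at least 2-fold higher and 1 lower, where the median gene was 1.42-fold higher. For plain ratios, here and in the lists below, the share of all genes past 2-fold was not computed.

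Enzymes that build the chains are needed by every member. Of 25 measured genes of linkage, polymerisation, modification and sulfate supply, none passed 2-fold with the pseudocount and 1, Ndst2, did without it, and their median log2 ratio was 0.44. Ext1, a subunit of the chain polymerase, was at 37.3 FPKM in Pax7 KO and 20.2 FPKM in WT, a log2 ratio of 0.85, or 0.43 relative to the median gene. Its partner subunit Ext2 had a log2 ratio of 0.44, and Extl3 and Extl2, which act at the start of the chain, had 0.67 and 0.38. B3gat3, which adds the glucuronic acid that completes the linkage region, had a log2 ratio of 0.84, B4galt7, a galactosyltransferase of the same region, 0.61, Acpl2 (Pxylp1), a xylose phosphatase, 0.52, and Fam20b, the xylose kinase, 0.49. Ndst2, an N-deacetylase and N-sulfotransferase, was at 5.91 FPKM in Pax7 KO and 2.95 FPKM in WT, with log2 ratios of 0.81 including the pseudocount and 1.00 excluding it. The epimerase Glce and the sulfotransferases Hs2st1 and Hs3st1 had log2 ratios of 0.38, 0.48 and 0.48. Slc26a2, a sulfate transporter, went the other way, at 1.01 FPKM in Pax7 KO and 1.66 FPKM in WT, a log2 ratio of -0.41. The other genes named for sulfate supply, Papss1, which makes the sulfate donor, and the Golgi transporters Slc35b2 and Slc35b3, had log2 ratios of 0.70, 0.77 and 0.70.

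Most genes that trim or degrade the proteoglycans lay above the median gene, which by definition has as many genes above it as below. Of 9 editing and degradation genes, 7 lay above it, and the median log2 ratio of the 9 was 0.73. Ids and Sgsh lay above it by only 0.01 each, and by 0.05 and 0.17 without the pseudocount. None of the 9 passed 2-fold with the pseudocount and 1, Idua, did without it. Sulf2, an extracellular 6-O-endosulfatase, was at 16.8 FPKM in Pax7 KO and 9.12 FPKM in WT, a log2 ratio of 0.81. The lysosomal enzymes Hgsnat and Idua had log2 ratios of 0.77 each, and the row of Idua shares its locus with Slc26a1. Without the pseudocount Idua was 2.23-fold higher. Of 9 shedding and release genes 1 passed 2-fold, the metalloprotease Adamts1, at 43.2 FPKM in Pax7 KO and 20.6 FPKM in WT, a log2 ratio of 1.03. Relative to the median gene Adamts1 was at 0.61, short of 2-fold. Timp3, a metalloprotease inhibitor, had a log2 ratio of 0.93, and shares its locus with Syn3 and a further row. The matrix proteases Mmp2 and Mmp3 had log2 ratios of 0.65 and 0.57. Of the 9 shedding and release genes 7 lay above the median gene, the inhibitor Timp3 among them. The proteases Adam17 and Furin did so by only 0.02 and 0.01. Without a pseudocount they lay below it, at -0.02 and -0.06. Adam10 lay below it on both scales, at -0.03 with the pseudocount and -0.08 without.

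Of 12 partners of the syndecan tail none passed 2-fold with the pseudocount, and the median log2 ratio was 0.52. Without it 2 did, Cask at 2.08-fold and Prkca, a protein kinase C isoform that acts with Sdc4, at 2.05-fold. Sdcbp (syntenin), the PDZ protein that binds the tail of every syndecan, was at 60.3 FPKM in Pax7 KO and 31.8 FPKM in WT, a log2 ratio of 0.90. Cask, a scaffold protein, had a ratio of 0.88, Farp1, a guanine nucleotide exchange factor, 0.84, and Sdcbp2, a relative of syntenin, 0.79. The 8 other proteoglycan cores had a median log2 ratio of 0.44, with Tgfbr3 (betaglycan) at 0.76, Nrp1 and Nrp2, the neuropilins, at 0.71 and 0.63, and Col18a1, a basement membrane collagen, at 0.48.

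Among 20 heparan sulfate ligands the median log2 ratio was 0.41. Fn1, fibronectin, was the 1 ligand past 2-fold, at 151 FPKM in Pax7 KO and 72.2 FPKM in WT, a log2 ratio of 1.06, or 0.64 relative to the median gene. Hbegf, an EGF-family growth factor, Pdgfb, a platelet-derived growth factor chain, and Bmp2 had log2 ratios of 0.94, 0.82 and 0.72. Among 19 receptors the FGF receptor Fgfr4 of myoblasts was the 1 gene past 2-fold with the pseudocount, at 0.526 FPKM in Pax7 KO and 6.76 FPKM in WT, a log2 ratio of -2.35. Fgfr2 was at 1.60 FPKM in Pax7 KO and 0.498 FPKM in WT, which is 3.22-fold higher as a plain ratio and 0.80 on the log2 scale that includes the pseudocount. The VEGF receptor Kdr and the integrin subunit Itgb3 had log2 ratios of 0.76 and 0.71, or 0.34 and 0.29 relative to the median gene. On that relative scale the receptors Met and Musk stood at -0.96 and -0.89. Of the 19 receptors 11 lay above the median gene and 8 below it. The authors' deposited table lists Fn1, Rspo1 and Fgfr2 of these 128 genes as higher, and Slc26a2, Fgfr4, Met and Musk as lower. Here too the share of all genes in that table was not computed.

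**Figure D4:**
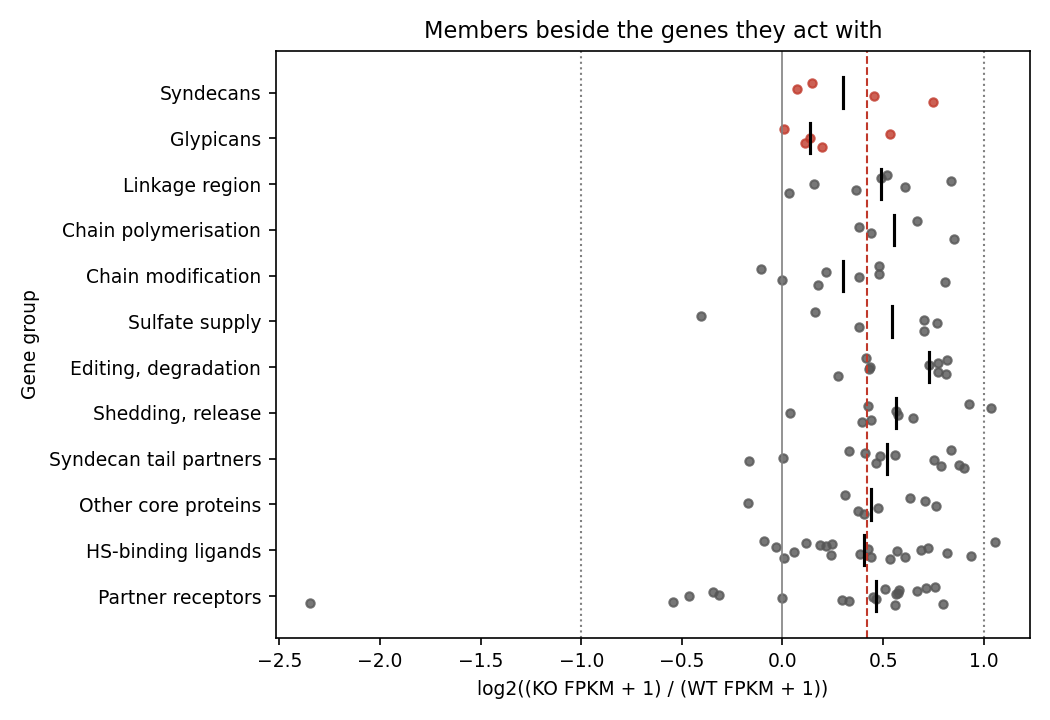
Log2 ratio of Pax7 KO over WT, with a pseudocount of 1, for syndecans and glypicans (red) and for the genes of 10 related lists (grey), each point 1 gene above 1 FPKM and each black bar the median of its row. The dashed line is the median gene at 0.42 and the dotted lines are 2-fold. Glypicans have a median of 0.14, editing and degradation genes one of 0.73, and the point at -2.35 is Fgfr4.

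Summed levels of cell type markers differed between the libraries, and their part in the values of the members was not tested. The sums are as deposited, where the median gene was 1.42-fold higher in Pax7 KO. Beside the counts below, 5.06% of all genes were at least 2-fold higher. Basal keratinocyte markers, of a cell type rich in Sdc1, summed to 53.3 FPKM in Pax7 KO and 11.5 FPKM in WT. Of 6 of them above the limit 2 were at least 2-fold higher, Krt5 and Krt14, and the epithelial gene Cdh1 had a log2 ratio of -0.15. Krt5 and Krt14 made up 38.7 FPKM of that sum in Pax7 KO and 0.708 FPKM in WT. The other 8 markers summed to 14.6 FPKM in Pax7 KO and 10.8 FPKM in WT, 1.35-fold higher, where the median gene was 1.42-fold higher. Among them Col17a1 was at 1.26 FPKM in Pax7 KO and 0.273 FPKM in WT. Dsp was at 0.782 FPKM in Pax7 KO and 0.267 FPKM in WT. Krt15 went the other way, at 0.0545 FPKM in Pax7 KO and 0.205 FPKM in WT, as did Cdh1. The remaining folds lay between these, and Col17a1, Dsp and Krt15 were below the limit. Adipocyte markers summed to 1204 FPKM in Pax7 KO and 242 FPKM in WT, with 7 of 7 at least 2-fold higher. Endothelial markers summed to 678 FPKM in Pax7 KO and 350 FPKM in WT (2 of 8 higher), and fibroblast markers to 289 FPKM in Pax7 KO and 181 FPKM in WT (1 of 8 higher). Smooth muscle and pericyte markers summed to 987 FPKM in Pax7 KO and 886 FPKM in WT (2 of 9 higher). Acta2 made up 642 FPKM of that sum in Pax7 KO and 626 FPKM in WT. Relative to the median gene, 4 of these 9 (Acta2, Myh11, Tagln and Cnn1) had log2 ratios from -0.38 to -0.25. The other 5 (Rgs5, Kcnj8, Abcc9, Pdgfrb and Notch3) had 0.36 to 1.58. Schwann cell markers summed to 86.5 FPKM in Pax7 KO and 61.1 FPKM in WT (0 of 8). Cartilage and tendon markers summed to 205 FPKM in Pax7 KO and 67.9 FPKM in WT (2 of 5 higher). Col2a1 made up 170 FPKM of that sum in Pax7 KO and 42.0 FPKM in WT, and the tendon factor Scx, whose row shares its locus with other rows, went the other way, at 3.34 FPKM in Pax7 KO and 6.91 FPKM in WT, a log2 ratio of -0.87, or -1.29 relative to the median gene. Leukocyte markers summed to 27.3 FPKM in Pax7 KO and 20.0 FPKM in WT (0 of 3). Satellite cell markers summed to 141 FPKM in Pax7 KO and 269 FPKM in WT. Of 8 above the limit 5 were at least 2-fold lower, against 0.689% of all genes, and these 5 include Pax7, the deleted gene. Among markers above the limit, median log2 ratios relative to the median gene were 1.98 for adipocyte, 0.36 for endothelial and 0.30 for fibroblast markers. They were 0.36 for smooth muscle and pericyte, 0.09 for Schwann cell and -0.04 for basal keratinocyte markers. For cartilage and tendon, leukocyte and satellite cell markers they were -0.06, -0.10 and -1.74. No marker of these lists was at the lowest listed value in either library.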

How the data were processed

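Gene expression was measured by polyA RNA-seq in 2 libraries, 1 per genotype. The authors deposited FPKM for WT and KO per gene, per the file headers, and lists of called genes with a fold, the ratio of KO over WT FPKM. Named in the submitters' processing notes, with no role given, are the mm9 build, Cuffdiff 2.1.1, Cufflinks 2.1.1 and TopHat2 2.0.9. The lowest listed value was 0.001.

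From the deposited FPKM, log2((KO + 1)/(WT + 1)) was computed, and genes whose FPKM averaged at least 1 were compared, with a limit of 2-fold. The pseudocount understates changes of low genes. Rows of the 1 repeated symbol were summed. Fragments were estimated from the step on which low values, multiplied by the longest GENCODE M21 transcript (over 500 nt), fell (mean cosine 0.37 in KO and 0.34 in WT, where 1 is exact), assuming that no scaling factor was applied to a library. Counting intervals are exact (Clopper-Pearson, 95%). The depth estimate and intervals were checked on simulated data. The interval check used the simulated counts and depths themselves, so it did not cover error in the estimated fragments. The simulated libraries had no scaling factor, and most of their genes kept the exact length. Table starts were read as counted from 0, since 7162 of 20652 loci then equalled the RefSeq gene length, against 455 otherwise, and 1 was added.

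The members and lists were chosen with earlier results of these data known. Named genes were all members, Pax7, and in each list the 4 genes above the limit with the largest log2 ratio in size plus any past 2-fold. A gene that this rule names is not reported here. Prkca, Met, Musk, Adam10, Adam17, Furin, Ids, Sgsh and the single markers named were chosen after their values were seen. So were the genes cited from the authors' lists only, the 8 ratios between members and the use of counting intervals. Alternatives were other pseudocounts, scalings, filters and a 1.5-fold limit. Values were computed with scipy 1.17.1, pandas 2.3.3 and numpy 2.4.6 under Python 3.11.15 and drawn with matplotlib 3.10.9.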

Additional observations from a re-analysis of the deposited data

How the results depend on the processing

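The count of members past 2-fold was 0 in each direction under pseudocounts of 0.1 and 0.5, no pseudocount, both other scalings, no filter and a mean FPKM of 5 or more. A 1.5-fold limit gave 1 higher member, Sdc1, against 30.0% of all genes, and 0 lower. The members' median log2 ratio, 0.15, was 0.18 with a pseudocount of 0.1, 0.16 with 0.5, 0.18 with none, 0.14 without a filter and 0.20 at a mean FPKM of 5 or more. It was -0.27 relative to the median gene and -0.25 with upper-quartile scaling, so its sign depends on the scaling by the construction of these alternatives. Related genes past 2-fold were 2 higher and 1 lower. Higher ones were 5 with a pseudocount of 0.1, 7 with none, 0 relative to the median gene and 0 with upper-quartile scaling. At a 1.5-fold limit 34 of the 102 were higher, beside 30.0% of all genes. Lower ones were 2 with upper-quartile scaling and 0 at a mean FPKM of 5 or more, since the mean of Fgfr4 is under 5. No paired analysis was possible because each genotype has 1 library, and for the same reason no library could be left out. Depth limits Gpc5, with about 6 fragments in Pax7 KO and 1 in WT, and leaves wide intervals for Gpc2 and Gpc3.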
